A study of Homo sapiens with 18 samples.

Results

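The genes described here form the transcriptional arm of the integrated stress response around ATF4, together with amino acid transporters and the enzymes that charge tRNAs. A list of 46 gene symbols defined them, and 40 of the 46 had a row in the expression table of 13992 genes. They comprise 10 stress factors and regulators, 7 enzymes of amino acid and one-carbon metabolism, 6 amino acid transporters, 16 cytosolic aminoacyl-tRNA synthetases and the tRNA exporter XPOT. ASNS, SESN2, VLDLR-AS1, CARS1, IARS1 and VARS1 were not analysed here. Of the 40 genes, 39 passed the filter on low values, and ALDH1L2 did not.

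The cells were HMC3, an established and immortalized human cell line used as a model of microglia, labelled wild type. They were left without oxidized low-density lipoprotein (oxLDL, 0 µg/ml) or were given it for 24 h at 1, 2.5, 10, 50 and 100 µg/ml. This modified lipoprotein particle is taken up through scavenger receptors. Each of the 6 doses has 3 libraries of poly-A RNA, 18 in all and all of the same line, so they give no information on variation between donors. Whether a dose's libraries are separate cultures is not labelled, and the p-values below then measure only how far these libraries differ, which may be technical. Every comparison with 0 µg/ml uses the same 3 untreated libraries.

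Read numbers given here were inferred from the FPKM values, as described under processing. Depth so inferred was 13919066 to 37382244 reads per library, and the 39 tested genes held 67 to 18680 reads per library. Of 16 microglia and macrophage markers, 2 had a row, namely CD68 and CD14, and the other 14, among them AIF1, P2RY12, TMEM119, CSF1R and PTPRC, were not analysed here. Of 12 mesenchymal and pericyte markers, 8 had a row, and they differed widely in level over the 18 libraries. COL1A1 was at 334 to 556 FPKM, TAGLN at 110 to 153 FPKM and THY1 at 68.2 to 101 FPKM. COL1A2 (0.708 to 1.38 FPKM), ACTA2 (0.354 to 0.785 FPKM) and RGS5 (0.113 to 0.239 FPKM) were low. FPKM scales the fragments of a gene by transcript length and by library total. The summed marker levels at 100 µg/ml did not overlap those at 0 µg/ml. The summed microglia and macrophage markers were at 15.2 to 16.1 FPKM at 100 µg/ml, against 13.03 to 13.6 FPKM at 0 µg/ml. That sum is nearly all CD68, and its 2 genes differed in opposite directions. CD68 was at 14.3 to 15.7 FPKM at 100 µg/ml, against 11.9 to 12.4 FPKM at 0 µg/ml, a difference of 0.28 (log2) that limma did not call (adjusted p = 0.0512) and limma-voom, which fits the reads, did (0.0259). CD14, with 0.437 to 0.883 FPKM at 100 µg/ml against 0.976 to 1.17 FPKM at 0 µg/ml, fell by 0.50 (limma adjusted p = 0.0244), a call lost without replicate 2 or 3 of either dose (adjusted p = 0.0643 to 0.132). The summed mesenchymal and pericyte markers were at 526 to 594 FPKM at 100 µg/ml, against 715 to 782 FPKM at 0 µg/ml. COL1A1 made up most of that sum. Of the 7 tested, limma called 3 lower and 0 higher at 100 µg/ml, where 7.51% of all genes tested fell. Their log2 differences ran from -0.51 to 0.07, with 2 above 0. The part of all these markers in the results below was not tested. In bulk RNA fewer cells of a type cannot be told apart from less RNA per cell.

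In the integrated stress response, kinases that sense amino acid shortage, misfolded protein, double-stranded RNA or heme deficiency phosphorylate the initiation factor eIF2. General protein synthesis then falls, while the messenger RNA of ATF4 is translated more, because short upstream reading frames delay initiation on it. ATF4 is a bZIP transcription factor that binds DNA as a dimer, often with a C/EBP protein, and is known for raising genes of amino acid uptake, amino acid synthesis and tRNA charging. The transcript level of ATF4 is therefore not a measure of its protein.

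At 100 µg/ml, the stress factors and the transporters moved more than the tRNA synthetases. In all, 12 of the 39 genes rose and 2 fell against 0 µg/ml at a limma adjusted p under 0.05, which is 30.8% and 5.13% of them. Over all 12127 genes tested, 7.94% rose and 7.51% fell. By role, 6 of 10 stress factors rose, none was called lower (1 at an unadjusted p under 0.05, none by limma-voom), and their median log2 fold change was 0.16. Among 6 transporters 3 rose and 1 fell, with a median of 0.13 (log2). Of the 6 tested enzymes, 1 rose and 1 fell, with a median of 0.01, and of 16 synthetases 1 rose, with a median of 0.02. The median over all genes tested was -0.004. The absolute log2 change had a median of 0.19 in stress factors, 0.23 in transporters, 0.12 in enzymes and 0.06 in synthetases, against 0.08 over all genes tested. These group values are a description without a test.

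**Figure D1:**
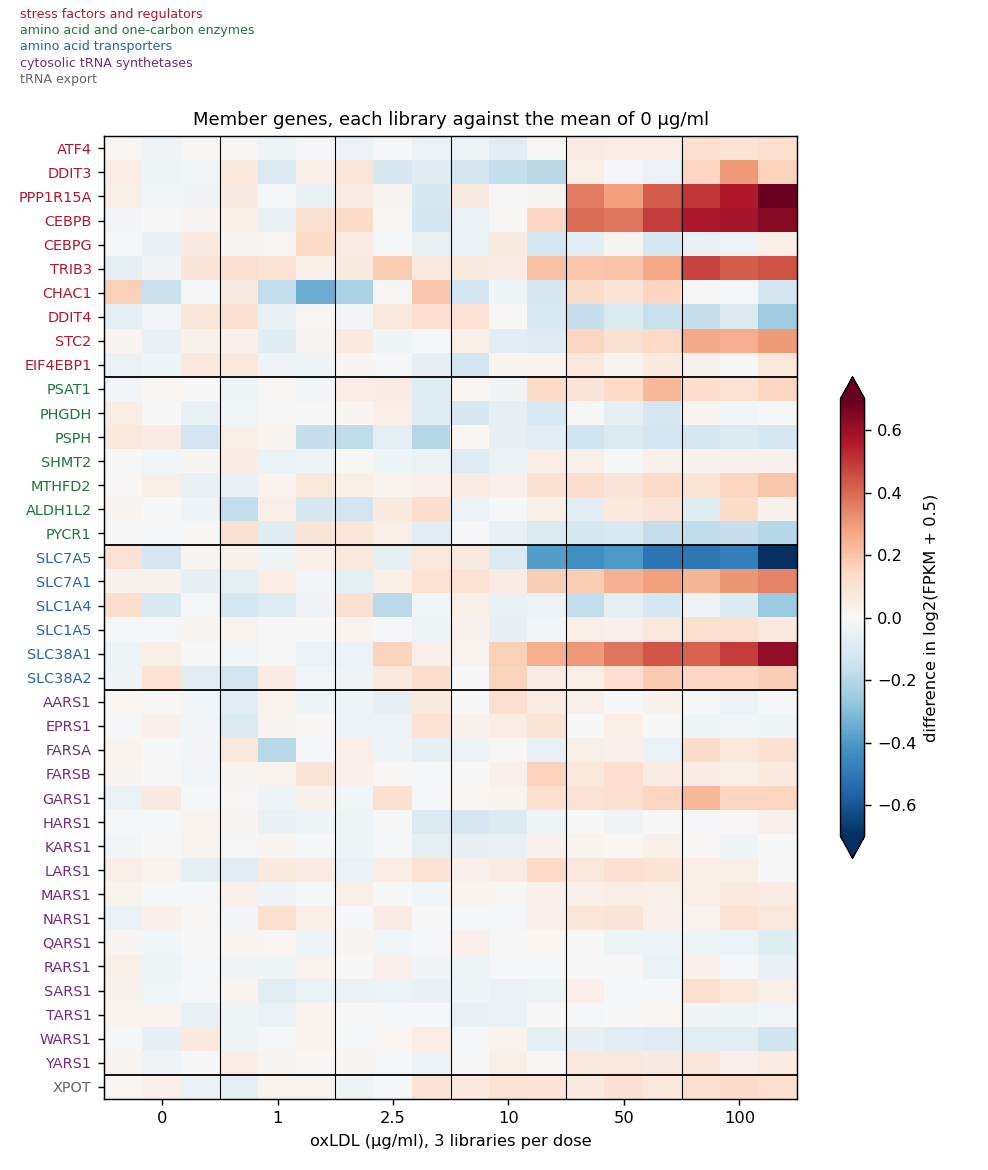
Level of the 40 genes in each of the 18 libraries, as the difference of log2(FPKM + 0.5) from the mean of the 3 libraries at 0 µg/ml, with genes in rows by role and libraries in columns by dose. The strongest colours lie in the 6 columns of 50 and 100 µg/ml, in the rows of CEBPB, PPP1R15A, TRIB3 and SLC38A1 (higher) and of SLC7A5 (lower), while the 16 synthetase rows stay pale.

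The largest rises among the stress factors were those of CEBPB and PPP1R15A. CEBPB (chr20:50190583-50192690, GRCh38.p14) encodes a C/EBP transcription factor that can pair with ATF4. It was at 41.1, 41.6 and 43.3 FPKM at 100 µg/ml, against 27.2, 27.6 and 28.0 FPKM at 0 µg/ml. The 50 µg/ml libraries held 36.4, 35.9 and 38.8 FPKM, while the 9 libraries of 1 to 10 µg/ml ran from 25.2 to 30.6 FPKM. All 6 libraries of the highest doses lay above all 12 of the lower ones, and 100 µg/ml lay above 50 µg/ml. CEBPB rose by a log2 fold change of 0.60 (SE 0.0598, limma adjusted p = 4.51e-06) at 100 µg/ml and of 0.42 (SE 0.0598, adjusted p = 0.000411) at 50 µg/ml. The gene overlaps CEBPB-AS1 on the opposite strand, and the library kit does not mark strand, so its reads cannot be told apart from those of that transcript.

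PPP1R15A (chr19:48872421-48876058), also called GADD34, brings protein phosphatase 1 to eIF2 and so ends the response. It was at 63.0, 65.6 and 72.1 FPKM at 100 µg/ml, against 45.7, 43.8 and 43.6 FPKM at 0 µg/ml. With 50 µg/ml the values were 57.0, 54.2 and 59.8 FPKM, and the 9 libraries of 1 to 10 µg/ml ran from 41.1 to 46.4 FPKM. The order of the 3 upper levels was the same as for CEBPB, with no overlap between 100, 50 and the lower doses. Its mean was 50.7% higher at 100 µg/ml, with a log2 fold change of 0.58 (SE 0.0522, limma adjusted p = 1e-06), and 28.4% higher at 50 µg/ml (log2 fold change 0.36, SE 0.0522, adjusted p = 0.000484).

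TRIB3 (chr20:380760-397559) encodes a pseudokinase that is a target of ATF4 and DDIT3 and acts back on ATF4. Its 3 libraries at 100 µg/ml were at 14.8, 14.3 and 14.5 FPKM, against 10.0, 10.3 and 11.3 FPKM at 0 µg/ml. In the 50 µg/ml libraries it was at 12.1, 12.2 and 12.8 FPKM, and those of 1 to 10 µg/ml ran from 10.9 to 12.2 FPKM. The 100 µg/ml libraries stood above all others, while those of 50 µg/ml overlapped the upper end of the low doses. TRIB3 rose by 0.45 (log2, SE 0.0491, limma adjusted p = 1.07e-05) at 100 µg/ml and by 0.22 (SE 0.0491, adjusted p = 0.0106) at 50 µg/ml. The call at 50 µg/ml was lost without replicate 1 of 0 µg/ml (adjusted p = 0.0621) and without replicate 3 of 50 µg/ml (adjusted p = 0.0562).

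STC2 (chr5:173314723-173328414), a secreted glycoprotein, had 118.6, 117.5 and 121.3 FPKM at 100 µg/ml, against 99.9, 95.2 and 100.8 FPKM at 0 µg/ml. The 50 µg/ml group had 109.3, 106.2 and 108.6 FPKM, above the range of 92.6 to 103.4 FPKM at 1 to 10 µg/ml. It rose by 0.27 (log2, SE 0.0397, limma adjusted p = 0.000189) at 100 µg/ml. A difference of 0.13 at 50 µg/ml was not called (adjusted p = 0.0545), although the 3 libraries there did not overlap those at 0 µg/ml. Summed over the 18 libraries, STC2 had more reads than any other gene of the list.

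ATF4 itself (chr22:39520559-39522686), the most abundant of the stress factors, moved little. It was at 179.5, 176.9 and 179.6 FPKM at 100 µg/ml, against 167.5, 163.0 and 167.0 FPKM at 0 µg/ml. The values of the 50 µg/ml libraries were 172.9, 172.2 and 172.0 FPKM, and those of 1 to 10 µg/ml ran from 157.3 to 167.2 FPKM. The groups did not overlap, and the mean at 100 µg/ml was 7.74% higher (log2 fold change 0.11, SE 0.0252, limma adjusted p = 0.00752). Its log2 difference at 50 µg/ml was 0.06 (adjusted p = 0.21).

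DDIT3 (chr12:57516588-57520517), the transcription factor CHOP, is a known ATF4 target linked to cell death. It was at 17.7, 19.7 and 17.8 FPKM at 100 µg/ml, against 16.5, 15.5 and 15.7 FPKM at 0 µg/ml. The 50 µg/ml libraries had 16.4, 15.8 and 15.5 FPKM, and those of 10 µg/ml 14.5, 14.1 and 13.8 FPKM. Only the libraries of 100 µg/ml stood above those of 0 µg/ml, and the 3 of 10 µg/ml were the lowest of all 18. DDIT3 rose by 0.20 (log2, SE 0.0562, limma adjusted p = 0.02) at 100 µg/ml. The difference was -0.002 at 50 µg/ml (adjusted p = 0.994) and -0.16 at 10 µg/ml (adjusted p = 0.493). Leaving out replicate 2 of 100 µg/ml ended the call at 100 µg/ml (adjusted p = 0.101), as did leaving out replicate 2 (0.0725) or replicate 3 (0.0625) of 0 µg/ml. DDIT3 overlaps the exons of MARS1 and MBD6 on the opposite strand, and MARS1, at 76.8 ± 0.6 FPKM at 100 µg/ml and 73.8 ± 1.0 FPKM at 0 µg/ml (SD, n = 3 each), differed by 0.06 (adjusted p = 0.139).

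The other 4 stress factors were not called. CHAC1 (chr15:40953471-40956512), which breaks down glutathione, was the lowest of the stress factors, with 3.49, 3.47 and 3.17 FPKM at 100 µg/ml against 4.0, 3.09 and 3.47 FPKM at 0 µg/ml. The groups overlapped, and the log2 difference of -0.05 had a 95% interval of -0.27 to 0.18 (limma adjusted p = 0.824). CEBPG, a dimer partner of ATF4, differed by -0.02 (adjusted p = 0.895), and EIF4EBP1, which restrains cap-dependent translation, by 0.04 (adjusted p = 0.635). DDIT4, an inhibitor of mTORC1 signaling, had 12.04, 12.7 and 11.4 FPKM at 100 µg/ml against 12.9, 13.4 and 14.5 FPKM at 0 µg/ml. These groups did not overlap, but the difference of -0.17 missed the threshold (adjusted p = 0.0633).

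**Figure D2:**
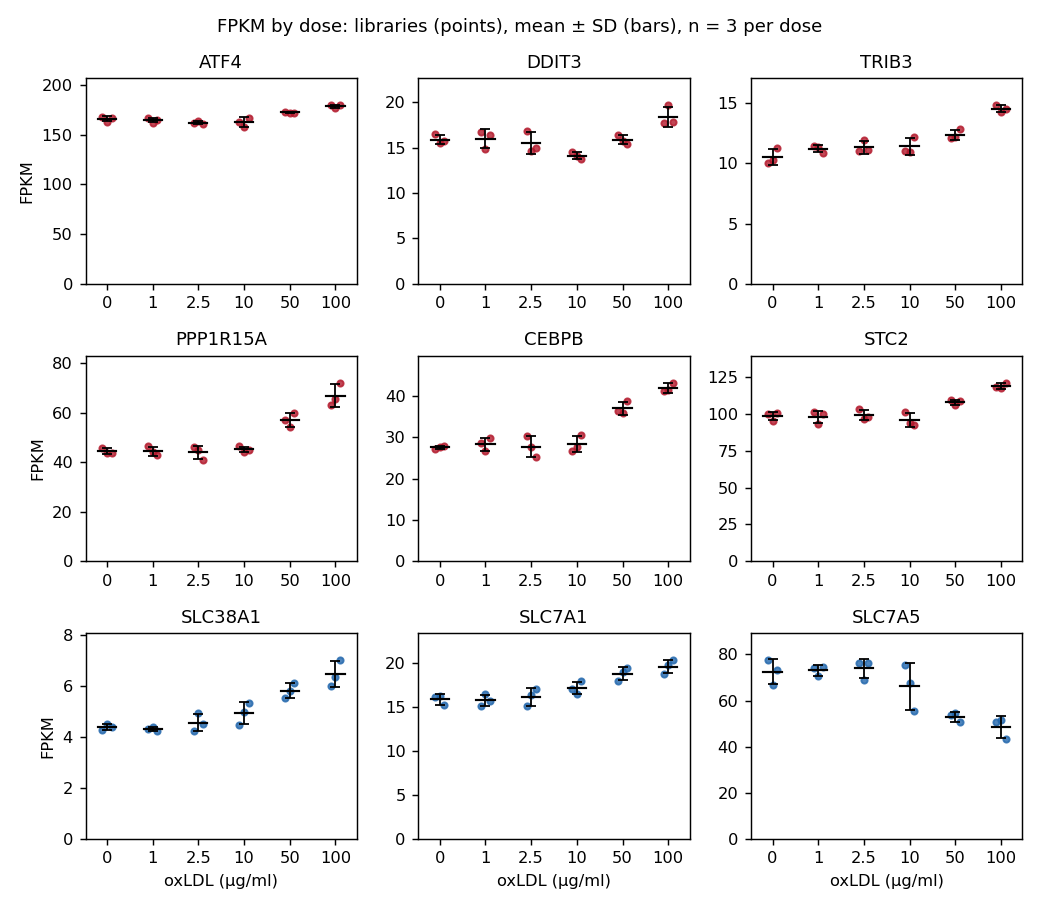
FPKM of 9 genes against oxLDL dose, with each point a library and the bar the mean ± SD of 3 libraries per dose. CEBPB and PPP1R15A are flat to 10 µg/ml and higher at 50 and 100 µg/ml, DDIT3 is lowest at 10 µg/ml and highest at 100 µg/ml, and SLC7A5 is lower at 50 and 100 µg/ml.

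The transporters did not move as a group. SLC38A1 and SLC7A1 rose, SLC1A5 rose slightly, SLC7A5 fell, and SLC38A2 and SLC1A4 were not called. SLC38A1 (chr12:46183063-46269043), a sodium-coupled carrier of glutamine and other neutral amino acids, was at 6.02, 6.37 and 7.03 FPKM at 100 µg/ml, against 4.27, 4.53 and 4.38 FPKM at 0 µg/ml. The 50 µg/ml libraries held 5.53, 5.83 and 6.14 FPKM, and those of 10 µg/ml 4.48, 5.0 and 5.34 FPKM. Both upper doses were above every lower library, and 50 and 100 µg/ml overlapped each other. SLC38A1 rose by 0.51 (log2, SE 0.0663, limma adjusted p = 6.26e-05) at 100 µg/ml and by 0.37 (SE 0.0663, adjusted p = 0.00249) at 50 µg/ml.

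SLC7A1 (chr13:29509414-29595688), the carrier of arginine, lysine and ornithine, had 18.8, 19.8 and 20.3 FPKM at 100 µg/ml, against 16.2, 16.2 and 15.2 FPKM at 0 µg/ml. With 50 µg/ml the libraries had 18.01, 18.98 and 19.5 FPKM, just above the range of 15.1 to 17.96 FPKM of 1 to 10 µg/ml. The rise was 0.30 (log2, SE 0.0499, limma adjusted p = 0.000628) at 100 µg/ml and 0.24 (SE 0.0499, adjusted p = 0.00752) at 50 µg/ml, with no overlap with 0 µg/ml at either dose.

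SLC38A1 and SLC7A1 also share a sequence feature. The core of the C/EBP-ATF response element, TGATGNAA, was searched on both strands in the RefSeq promoters of GRCh38.p14, from 250 bases before to 50 after each gene's start. Promoters are printed for the genes given by value in this text that hold it, with the match in capitals, since they show where in each promoter the letters lie. The RefSeq start used for SLC38A1 lies inside the gene span given above. Each sequence reads 5′ to 3′ on the gene's own strand.
SLC38A1, chr12:46266467-46266766, minus strand: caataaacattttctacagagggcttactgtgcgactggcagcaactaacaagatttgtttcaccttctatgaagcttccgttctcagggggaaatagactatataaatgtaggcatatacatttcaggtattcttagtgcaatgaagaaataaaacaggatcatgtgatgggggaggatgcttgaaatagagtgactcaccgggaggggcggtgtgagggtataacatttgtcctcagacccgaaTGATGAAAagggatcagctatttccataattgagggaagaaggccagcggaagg
SLC7A1, chr13:29595639-29595938, minus strand: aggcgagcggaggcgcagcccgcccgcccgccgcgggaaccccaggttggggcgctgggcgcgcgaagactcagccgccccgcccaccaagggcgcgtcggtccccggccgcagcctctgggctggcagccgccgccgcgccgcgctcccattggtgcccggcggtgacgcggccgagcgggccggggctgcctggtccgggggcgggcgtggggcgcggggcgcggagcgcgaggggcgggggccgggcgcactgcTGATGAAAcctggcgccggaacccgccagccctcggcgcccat
CHAC1, chr15:40953221-40953520, plus strand: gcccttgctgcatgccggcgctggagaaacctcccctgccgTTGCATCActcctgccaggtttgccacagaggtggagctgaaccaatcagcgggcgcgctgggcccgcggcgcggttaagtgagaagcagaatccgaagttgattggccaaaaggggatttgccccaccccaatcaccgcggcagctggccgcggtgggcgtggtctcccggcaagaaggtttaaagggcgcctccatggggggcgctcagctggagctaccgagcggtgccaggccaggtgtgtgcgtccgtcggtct
The match of SLC38A1 begins at position -4 from the start, where -1 is the base just before it, and that of SLC7A1 at position 8, both as TGATGAAA on the gene's strand. In CHAC1 the letters are on the opposite strand, beginning at position -209. The first pair belongs to genes that rose, and CHAC1 was not called.

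Of the 46 genes, 38 had a promoter in the table, and 10 of the 38 (26.3%) held the motif. Of the 33 that also had a row, 7 (21.2%) held it. The list was drawn up around ATF4, so setting its share beside others is no test of the motif. Over all 27305 promoters of the table the share was 3.67%, and over the 9519 tested genes with a promoter it was 1.63%. Among the genes of the list that rose at 100 µg/ml it was 2 of 12 (16.7%), and among tested genes of the list that were not called it was 5 of 20 (25.0%). Of these 10 genes 6 were synthetases, out of 16 synthetases with a promoter in the table, among them CARS1 and IARS1, which have no level here. Of the 14 synthetases with both a level and a promoter, 4 held the motif. Windows of 30 bases around the match follow for the synthetases with a row that hold it, chosen after their values were seen. They are printed as a description only.
AARS1, chr16:70289675-70289704, minus strand: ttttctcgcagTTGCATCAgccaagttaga
MARS1, chr12:57488053-57488082, plus strand: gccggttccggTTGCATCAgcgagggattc
NARS1, chr18:57621804-57621833, minus strand: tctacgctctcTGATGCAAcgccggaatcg
TARS1, chr5:33440956-33440985, plus strand: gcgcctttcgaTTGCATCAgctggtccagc
AARS1 differed by -0.02, MARS1 by 0.06, NARS1 by 0.07 and TARS1 by -0.03 (log2, 100 over 0 µg/ml), and none of these was called. In 7 of the 10 promoters the variable base of the motif was C on the strand that reads TGATG, and in SLC38A1, SLC7A1 and ASNS it was A. A match is a description of the letters, not evidence of binding.

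SLC7A5 (chr16:87830023-87869507), the light chain of the LAT1 carrier for leucine and other large neutral amino acids, is a textbook ATF4 target, and it fell. Its libraries were at 50.8, 51.7 and 43.2 FPKM at 100 µg/ml, against 77.5, 66.7 and 73.2 FPKM at 0 µg/ml. The 50 µg/ml libraries were at 53.5, 54.7 and 50.6 FPKM, and those of 10 µg/ml at 75.6, 67.5 and 55.4 FPKM. Replicate 3 of 10 µg/ml stood well below the other 11 libraries of the lower doses, and the 6 libraries of the upper doses lay below all others. The mean was 33.0% lower at 100 µg/ml, where SLC7A5 fell by 0.57 (log2, SE 0.0898, limma adjusted p = 0.000344). With 50 µg/ml SLC7A5 fell by 0.45 (SE 0.0898, adjusted p = 0.00588).

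SLC7A5 works as a dimer with the heavy chain SLC3A2, which also carries the cystine importer SLC7A11. Neither partner is in the list of 46. SLC3A2 was at 130.3, 128.5 and 128.0 FPKM at 100 µg/ml, against 90.2, 86.5 and 89.3 FPKM at 0 µg/ml, a rise of 0.54 (log2, SE 0.048, limma adjusted p = 1e-06). SLC7A11 was at 8.45, 9.26 and 9.75 FPKM at 100 µg/ml, against 1.35, 1.42 and 1.31 FPKM at 0 µg/ml, a rise of 2.38 (SE 0.0629, adjusted p = 2.31e-13). It was already higher at 10 µg/ml, with 2.05 to 2.22 FPKM, a rise of 0.51 (adjusted p = 0.00498). That call was lost without replicate 3 of 10 µg/ml or of 0 µg/ml (0.061 and 0.0588) and with only both doses fitted (0.123). So the heavy chain and its cystine partner moved up while the leucine partner moved down. The ratio of SLC7A5 to SLC3A2 in FPKM was 0.39, 0.403 and 0.338 at 100 µg/ml, against 0.859, 0.771 and 0.82 at 0 µg/ml. In the 50 µg/ml libraries it was 0.503, 0.55 and 0.472, with no overlap between the 3 doses.

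**Figure D3:**
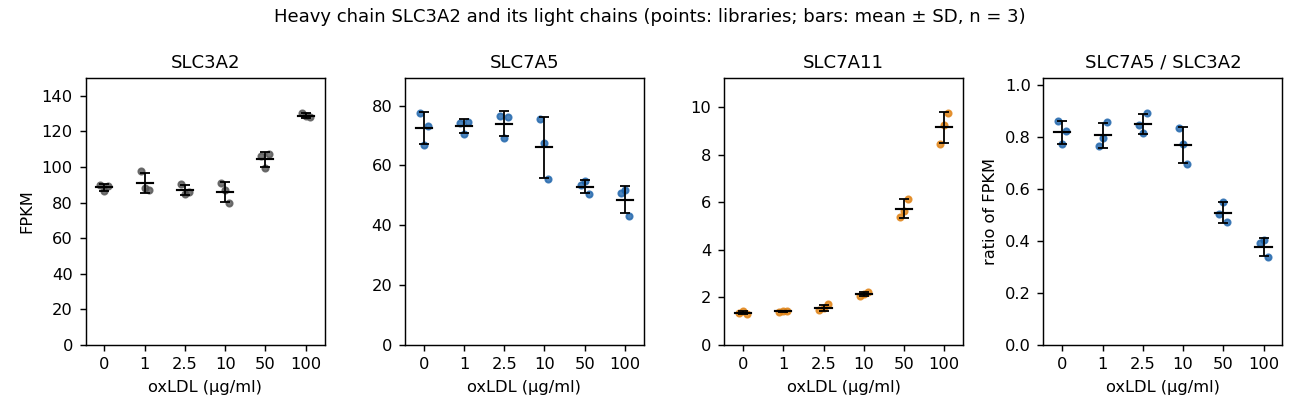
FPKM of SLC3A2, SLC7A11 and SLC7A5 and the ratio of SLC7A5 to SLC3A2 against oxLDL dose, each point a library, with the mean ± SD of 3 libraries per dose. SLC3A2 is higher at 50 and 100 µg/ml and SLC7A11 from 10 µg/ml on, SLC7A5 is lower at 50 and 100 µg/ml, and the ratio at 100 µg/ml, 0.338 to 0.403, lies below every other library.

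Of the remaining transporters, SLC1A5 (chr19:46774883-46788594), the ASCT2 carrier of glutamine, was at 106.4, 106.0 and 103.5 FPKM at 100 µg/ml, against 97.8, 97.6 and 99.6 FPKM at 0 µg/ml. It rose by 0.10 (log2, SE 0.0271, limma adjusted p = 0.0208), a change of 7.06%. The call was lost in 6 of 15 other settings. Among them were leaving out replicate 1 or 2 of 100 µg/ml (adjusted p = 0.0719 and 0.0664) or of 0 µg/ml (0.0716 and 0.0677), and limma-voom on reads (0.0517). SLC38A2, a close relative of SLC38A1, had 89.6, 89.7 and 91.3 FPKM at 100 µg/ml against 79.6, 86.9 and 77.1 FPKM at 0 µg/ml. These libraries did not overlap either, but the untreated ones were spread widely and the difference of 0.15 was not called (adjusted p = 0.0781). SLC1A4, a carrier of serine and alanine, differed by -0.13 (adjusted p = 0.303). Rises and the fall offset each other in the sum of the 6 transporters, which was 274.7 ± 4.6 FPKM at 100 µg/ml and 277.3 ± 3.3 FPKM at 0 µg/ml (SD, n = 3 each).

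The enzymes of serine, glycine, proline and one-carbon metabolism were split. MTHFD2 (chr2:74198615-74217565), of mitochondrial folate metabolism, was at 48.7, 50.6 and 52.0 FPKM at 100 µg/ml, against 45.8, 46.8 and 43.9 FPKM at 0 µg/ml. It rose by 0.15 (log2, SE 0.036, limma adjusted p = 0.0101), a call lost without replicate 3 of 100 µg/ml (adjusted p = 0.0595) or replicate 3 of 0 µg/ml (adjusted p = 0.0553). PYCR1 (chr17:81932391-81937300), which makes proline in mitochondria, was at 76.7, 77.8 and 75.6 FPKM at 100 µg/ml, against 86.9, 86.2 and 87.5 FPKM at 0 µg/ml. PYCR1 fell by 0.18 (log2, SE 0.0472, adjusted p = 0.0157), and the call was lost without replicate 3 of 100 µg/ml (adjusted p = 0.0607). Neither gene's libraries overlapped between the doses.

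PSAT1 (chr9:78297125-78330093), of the serine synthesis pathway, was the only gene of the list called at 50 µg/ml and not at 100 µg/ml. It had 68.4, 70.8 and 75.6 FPKM at 50 µg/ml, and 69.99, 68.9 and 71.3 FPKM at 100 µg/ml, against 63.4, 64.7 and 64.4 FPKM at 0 µg/ml. Neither upper dose overlapped 0 µg/ml, and replicate 3 of 50 µg/ml was the highest of the 18 libraries. The rise was 0.16 (log2, SE 0.0448, limma adjusted p = 0.0432) at 50 µg/ml, and the difference at 100 µg/ml was 0.13 (SE 0.0448, adjusted p = 0.0701). The call at 50 µg/ml was lost in 8 of 15 other settings, among them without replicate 3 of 50 µg/ml (adjusted p = 0.203), without replicate 2 of 50 µg/ml (0.0868) and without replicate 1, 2 or 3 of 0 µg/ml (0.131, 0.0823 and 0.102), with median-ratio scaling (0.0651) and with no variance trend (0.0719). PHGDH, the step before PSAT1, differed by -0.002 at 100 µg/ml, PSPH, the step after it, by -0.11, and SHMT2, which makes glycine from serine in mitochondria, by 0.03, with none of them called. ALDH1L2 averaged 0.361 ± 0.0646 FPKM at 100 µg/ml and 0.344 ± 0.013 FPKM at 0 µg/ml (SD, n = 3 each) and was not tested. Annotated pseudogenes resemble PSAT1, MTHFD2, ATF4 and SLC7A5, and reads shared with them would count toward or against these genes.

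The 16 cytosolic synthetases were abundant and differed little between doses. Their mean level over all libraries ran from 21.3 FPKM for FARSB to 128 FPKM for KARS1. Summed, they had 1108.7 ± 8.1 FPKM at 100 µg/ml, against 1095.3 ± 5.8 FPKM at 0 µg/ml (SD, n = 3 each). The median coefficient of variation within a dose was 2.01% for synthetases, against 4.25% for stress factors and 4.17% for transporters, so the libraries of a dose lay close together. Of the 16, only GARS1 (chr7:30594735-30634033), the glycyl-tRNA synthetase, was called at 100 µg/ml. With 7.94% of all genes tested higher, 1 of 16 is near the background. GARS1 was at 44.4, 42.0 and 41.9 FPKM at 100 µg/ml, against 36.6, 39.4 and 37.3 FPKM at 0 µg/ml. It rose by 0.18 (log2, SE 0.0409, limma adjusted p = 0.0064), with a 95% interval of 0.09 to 0.27 and no overlap. No synthetase was called at 50 µg/ml by limma or limma-voom, with 4 at an unadjusted p under 0.05, and GARS1 there differed by 0.12 (adjusted p = 0.08).

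The other 15 synthetases differed by -0.10 (WARS1, adjusted p = 0.0731) to 0.10 (FARSA, adjusted p = 0.204) on the log2 scale at 100 µg/ml. Missing the threshold does not show that they were equal. Groups did not overlap for 5 of the 15, higher at 100 µg/ml, and for 2, lower, where over all genes tested 16.5% were higher without overlap and 16.9% lower. FARSA and FARSB, the 2 subunits of the phenylalanyl enzyme, were higher, at 87.7 ± 1.7 FPKM at 100 µg/ml against 81.7 ± 1.3 FPKM at 0 µg/ml and at 21.5 ± 0.2 FPKM at 100 µg/ml against 20.7 ± 0.3 FPKM at 0 µg/ml. The seryl enzyme SARS1 averaged 48.8 ± 1.2 FPKM at 100 µg/ml and 46.3 ± 0.9 FPKM at 0 µg/ml, and the tyrosyl enzyme YARS1 79.8 ± 1.4 FPKM at 100 µg/ml and 76.6 ± 1.1 FPKM at 0 µg/ml. The methionyl enzyme MARS1, given above, was also higher. Lower were the tryptophanyl enzyme WARS1, with 41.3 ± 1.1 FPKM at 100 µg/ml and 44.2 ± 2.0 FPKM at 0 µg/ml, and the glutaminyl enzyme QARS1, with 81.8 ± 1.6 FPKM at 100 µg/ml and 84.96 ± 1.1 FPKM at 0 µg/ml (SD, n = 3 each). None of these enzymes was called, with a limma adjusted p from 0.0731 (WARS1) to 0.388 (FARSB). WARS1 overlaps WDR25 and YARS1 overlaps S100PBP on the opposite strand.

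EPRS1, KARS1, LARS1, MARS1, QARS1 and RARS1 are enzymes of the large cytosolic multi-synthetase complex. Their log2 differences at 100 µg/ml ran from -0.06 (QARS1) to 0.06 (MARS1), and none was called. The exporter XPOT (chr12:64404392-64451125), which carries tRNA out of the nucleus, was at 26.2, 26.5 and 26.3 FPKM at 100 µg/ml, against 24.5, 24.8 and 23.4 FPKM at 0 µg/ml. It rose by 0.12 (log2, SE 0.037, limma adjusted p = 0.0344). This call was lost in 7 of 15 other settings, which included leaving out replicate 1, 2 or 3 of 100 µg/ml (adjusted p = 0.0693, 0.0898 and 0.0849), and replicate 1 or 3 of 0 µg/ml (0.0662 and 0.141).

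**Figure D4:**
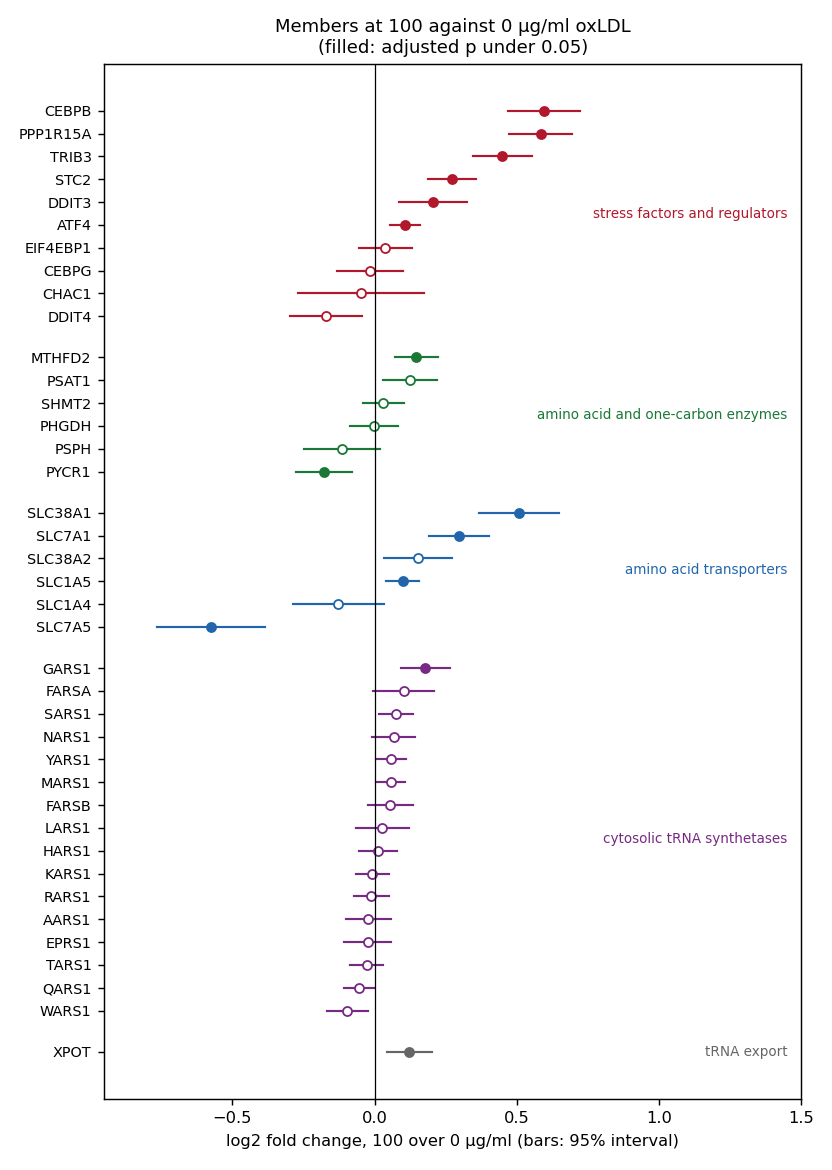
Log2 fold change of the 39 tested genes at 100 over 0 µg/ml, with the unadjusted 95% interval of the limma fit, by role, and filled points for an adjusted p under 0.05. CEBPB and PPP1R15A are farthest to the right at 0.60 and 0.58, SLC7A5 is farthest to the left at -0.57, and 15 of the 16 synthetases lie open between -0.10 and 0.10.

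Along the dose series, genes of the list were called against 0 µg/ml at 50 and 100 µg/ml. With 50 µg/ml 6 of the 39 genes rose (15.4%) and 1 fell (2.56%), against 3.78% and 3.69% of all genes tested. At 10 µg/ml none was called, by the limma adjusted p, with 7 at an unadjusted p under 0.05, and 0.033% of all genes rose and 0.00825% fell. At 2.5 µg/ml none was called, with 2 at an unadjusted p under 0.05, and at 1 µg/ml none, with 0 such genes. In both comparisons 0.0% of all genes were called. Limma-voom on reads also called no gene of the list at 1, 2.5 or 10 µg/ml.

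The step between 10 and 50 µg/ml held 3 calls, all higher at 50 µg/ml and all stress factors. CEBPB differed by 0.38 (log2, SE 0.0598, limma adjusted p = 0.00198), PPP1R15A by 0.33 (SE 0.0522, adjusted p = 0.0021) and STC2 by 0.17 (SE 0.0397, adjusted p = 0.0279). In that step 1.39% of all genes tested rose and 1.22% fell. The result depended on replicate 3 of 10 µg/ml, in which SLC7A5 was lowest and SLC38A1 highest of the 3 libraries. Without it 5 genes were higher (ATF4, CEBPB, PPP1R15A, PSAT1 and SLC38A1) and SLC7A5 was lower (-0.43, adjusted p = 0.00469). STC2 was then no longer called, and the calls were no longer all stress factors. Between 50 and 100 µg/ml no gene of the list was called, with 6 at an unadjusted p under 0.05, and 0.223% of all genes rose and 0.0577% fell. Limma-voom called PPP1R15A and TRIB3 higher at 100 than at 50 µg/ml.

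A slope on log2(dose + 1) over all 18 libraries was called for 19 of the 39 genes (48.7%), against 25.6% of all genes tested. It was upward for 15 of them and downward for 4, DDIT4, PYCR1, SLC7A5 and WARS1, where over all 12127 genes it was upward for 1576 and downward for 1533. SLC38A2, MARS1 and YARS1, which were not called at 100 µg/ml, were among the 15. A test for any difference among the 6 doses called 16 of the 39, against 15.4% of all genes tested, and these included DDIT3, whose slope was not called (adjusted p = 0.189). Groups of 3 libraries that did not overlap were found for 20 genes higher (51.3%) and 5 lower (12.8%) at 100 µg/ml, against 16.5% and 16.9% of all genes tested.

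Other genes of the pathway give the surroundings, and their counts stand against the 7.94% of all genes tested that rose and the 7.51% that fell at 100 µg/ml. A list of 17 genes held the eIF2 kinases, eIF2 and eIF2B, with others such as PPP1R15B, DELE1 and OMA1. None of the 17 was called at 100 µg/ml by limma or limma-voom, with 2 at an unadjusted p under 0.05. Their median log2 change was 0.03. PPP1R15B, which is not a kinase or a part of eIF2 or eIF2B, differed by 0.12 (limma adjusted p = 0.113). Of 17 other ATF4 targets and partners 4 rose and 1 fell. Beside SLC7A11 and SLC3A2, these were the death receptor TNFRSF10B (28.99 ± 1.6 FPKM at 100 µg/ml and 23.2 ± 0.7 FPKM at 0 µg/ml, log2 fold change 0.31, adjusted p = 0.000301), the transcription factor ATF5 (0.15, adjusted p = 0.0249) and JDP2, a bZIP repressor, which fell by 0.44 (adjusted p = 0.000858). Of 16 further enzymes 1 rose and 2 fell, counts near those shares. The 1 that rose was ODC1, the rate-limiting enzyme of polyamine synthesis, which averaged 95.5 ± 3.3 FPKM at 100 µg/ml and 68.6 ± 1.9 FPKM at 0 µg/ml (log2 fold change 0.47, adjusted p = 3.84e-08). GLUL, glutamine synthetase, fell by 0.18 (adjusted p = 0.0396) and MTHFD1, of cytosolic folate metabolism, fell by 0.09 (adjusted p = 0.0311). Leaving out any 1 library of either dose ended the call of GLUL (adjusted p = 0.059 to 0.148), as did fitting only the 2 doses (0.128). The call of MTHFD1 was lost without replicate 1 or 2 of either dose (0.0789 to 0.131). It was also lost with only the 2 doses fitted (0.107) and with no variance trend (0.0703). The call of ATF5 was lost without replicate 1 or 2 of 0 µg/ml and without replicate 1 or 3 of 100 µg/ml (0.0519 to 0.106).

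Of 13 other transporters tested 3 rose, SLC7A2 by 0.39 (log2, limma adjusted p = 0.00222) beside SLC3A2 and SLC7A11, and none was lower, at an unadjusted p under 0.05 or by limma-voom either. SLC3A2 and SLC7A11 are also in the count of other ATF4 targets and partners, so these counts are not separate. Of 15 mitochondrial synthetases TARS2 alone was called, and it fell by 0.15 (adjusted p = 0.00961, and 0.059 without replicate 1 of 0 µg/ml). With 7.51% of all genes tested lower, 1 of 15 is near the background. None of 5 other genes of the synthetase complex was called by limma or limma-voom, with 2 at an unadjusted p under 0.05. Among 7 tested paralogs of the listed genes, CEBPD rose by 0.46 (adjusted p = 0.00173) and SESN1 by 0.23 (adjusted p = 0.0374). The call of SESN1 was lost by limma-voom on reads (adjusted p = 0.0643), with only both doses fitted (0.0951), and without replicate 1 or 2 of 0 µg/ml or replicate 1 or 3 of 100 µg/ml (0.0998 to 0.13). VLDLR, the receptor gene beside VLDLR-AS1, was at 0.661, 0.677 and 0.632 FPKM at 100 µg/ml, against 0.649, 0.603 and 0.653 FPKM at 0 µg/ml, and differed by 0.03 (adjusted p = 0.859).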

How the data were processed

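Poly-A RNA of HMC3 cells was sequenced in 18 libraries, 3 at each of 6 oxLDL doses, and grouped by the treatment label. The deposited table holds FPKM per gene symbol, as computed by the authors. Per the submitters' processing notes, the tools were HISAT2 2.0.5, featureCounts and DESeq2 and the build hg38, without roles or order. Per the labels, all libraries share 1 batch value. The FPKM steps gave back whole reads within 0.05 reads in 13989 of 13992 genes (99.98%). Their absolute scale was set by matching the steps to annotated GENCODE exon lengths, and a length per gene was then inferred from the steps. Of 345 genes with a single exon, 24.6% came out at their annotated length. Depth was 13919066 to 37382244, and read numbers were used for depth and limma-voom only.

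The 12127 genes that reached 0.5 FPKM in 3 or more libraries were fitted in limma 3.58.1 (R 4.3.3) on log2(FPKM + 0.5), a scale that understates changes of low genes. The fit held all 6 doses, 12 residual degrees of freedom and the eBayes trend. Tests were two-sided with Benjamini-Hochberg adjustment over all genes tested, at 0.05, and the script was tested on simulated data. Log2 fold changes carry the limma standard error (SE) and FPKM the SD. Without molecular identifiers, reads are not independent molecules.

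Genes were given in every library where called at 50 or 100 µg/ml against 0 µg/ml, and ATF4, DDIT3, TRIB3, CHAC1 and SLC7A5 whatever their values. DDIT4, SLC38A2, the motif windows and the synthetases whose groups did not overlap were added after values were seen. From other lists up to 4 called genes were named, with SLC3A2, SLC7A11 and VLDLR. The genes and lists were chosen with earlier results of these data known, and some genes of the lists are not reported here. Gene coordinates and promoters are RefSeq's, of GRCh38.p14, and overlaps and pseudogenes those of GENCODE. Of the 18 pairs of libraries within a dose, none agreed within sampling noise. Alternatives were other pseudocounts, filters, scaling, limma-voom with TMM factors on recovered reads, a replicate block and leaving out each library.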

Additional observations from a re-analysis of the deposited data

How the results depend on the processing

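Over 27 settings, 32 log2 fold changes were followed (16 genes at 50 and at 100 µg/ml against 0 µg/ml). Of these, 19 kept both their call and their direction in every setting that gave a value. At 100 µg/ml ATF4, CEBPB, GARS1, PPP1R15A, SLC38A1, SLC7A1, SLC7A5, STC2 and TRIB3 kept both in 15 of 15. In the settings that left out 1 library, the genes of the list called at 100 µg/ml against 0 µg/ml numbered 9 to 11 higher and 1 to 3 lower, against 12 and 2 in the full fit. At 50 µg/ml they numbered 4 to 6 higher and 1 to 1 lower, in the step between 10 and 50 µg/ml 2 to 5 higher and 0 to 1 lower, and for the slope 14 to 16 upward and 4 to 4 downward. The single lower call at 100 µg/ml came without replicate 3 of 100 µg/ml. With only the 2 doses compared, 2 genes were lower at 50 µg/ml, PYCR1 beside SLC7A5. With limma-voom 1 gene, SLC7A5, was lower at 50 than at 10 µg/ml, and 2 genes were higher at 100 than at 50 µg/ml. The median log2 change of the stress factors at 50 µg/ml, 0.09 in the full fit, ran from 0.05 to 0.11 over the settings that left out 1 library, and was 0.045 without replicate 2 of 0 µg/ml.

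The direction turned for 2 genes near no change. DDIT3 at 50 against 0 µg/ml, -0.002 in the full fit, was 0.002 with limma-voom and ran from -0.025 to 0.025 over the settings that left out 1 library, above 0 without replicate 1 of 0 µg/ml (0.025) and without replicate 2 (0.004) or 3 (0.017) of 50 µg/ml. CHAC1 at 100 against 0 µg/ml, -0.048 in the full fit, ran from -0.126 to 0.037, above 0 only without replicate 1 of 0 µg/ml. The cause was not tested.

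Libraries with the same replicate number did not deviate together. The correlation of their deviations ran from -0.33 to 0.24 over 45 pairs, against -0.24 to 0.25 over 90 pairs with other numbers, and 5 of 18 libraries correlated best with their own number. With the replicate block 13 genes were higher and 2 lower at 100 µg/ml. At 50 µg/ml PSAT1 was not called (adjusted p = 0.0515) and STC2 was (adjusted p = 0.0188). ALDH1L2 held only 40 to 126 reads per library.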
